A study of Bos taurus with 12 samples.

Results

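The 12 libraries of this series fell into 6 with high and 6 with low transcript levels of VEGFA, the secreted growth factor that drives the growth of blood vessels. A library was counted as high when VEGFA reached 500 counts per 1000000 counts of the library (CPM) and as low below that. The classes were thus chosen by a measured value, the VEGFA level, and not by a treatment. The high class held nanoplastics libraries 1, 2 and 5 and control libraries 2, 3 and 6, and the low class held nanoplastics libraries 3, 4 and 6 and control libraries 1, 4 and 5. Each class therefore held 6 of 12 libraries, with 3 of each treatment. The samples were bovine (Bos taurus) cumulus-oocyte complexes, each an oocyte inside its layer of cumulus cells, in pools of 50 complexes. Nanoplastics samples were matured in vitro with polystyrene particles 50 nm across at 3 µg/mL, and control samples were matured in medium without particles. Polyadenylated RNA was sequenced from 6 samples per treatment. The sources give no breed or genotype of the animals. The samples came from 3 batches of bovine material, but the sources do not tie samples to batches, so batch and VEGFA class cannot be told apart.

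VEGFA is a classic target of the hypoxia-inducible factors (HIF), transcription factors whose alpha subunits are hydroxylated by EGLN enzymes and destroyed when oxygen is plentiful. When oxygen falls, the alpha subunits persist and induce genes for glucose uptake, glycolysis, mitophagy and vessel growth. Several of the same genes also respond to the transcription factor ATF4, which acts when amino acids run short or proteins misfold. In the ovarian follicle granulosa and cumulus cells make VEGFA, and cumulus cells take up glucose and pass pyruvate and lactate to the oocyte.

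VEGFA itself (ENSBTAG00000005339) stood at 1891, 1344 and 1361 CPM in high nanoplastics libraries and at 1192, 583 and 895 CPM in high control libraries. It stood at 268, 296 and 347 CPM in low nanoplastics libraries and at 124, 487 and 113 CPM in low control libraries. The libraries nearest the threshold were control 3, just inside the high class, and control 4, just outside it, so the classes were closest in the control samples. Among nanoplastics samples the classes lay far apart, and all 3 high nanoplastics libraries had more VEGFA than all 3 high control libraries. Total counts ran from 14895630 to 20008464 in the high class and from 14167578 to 18684140 in the low class, with 13875 to 14224 and 13852 to 14202 genes detected. Transcripts of the oocyte markers took 0.121 to 0.156% of counts in the high class and 0.146 to 0.185% in the low class, and mitochondrially encoded transcripts 1.77 to 2.24% and 2.10 to 2.44%. All 16 cumulus and granulosa markers and 21 of the 23 oocyte markers in the table passed the filter on low counts, so transcripts of both labelled cell types were present.

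High and low libraries were compared across all genes in 1 model with treatment as a covariate, and a gene is called here when its adjusted p is under 0.05 in edgeR's quasi-likelihood test. Because VEGFA of the same libraries drew the classes, a call describes how far the split reaches and is no test of a condition, and no p-value of a single gene is given for it. VEGFA is left out of all counts. Of 12495 genes, 657 were called higher (5.26%) and 204 lower (1.63%) in the high class, and 3026 had an unadjusted p under 0.05. A positive log2 fold change was found for 5947. In 249 genes (1.99%) the lowest high library lay above the highest low library, and in 230 (1.84%) the order was the opposite. Counts of called or non-overlapping genes in the lists below are to be read beside these shares. Differences upward were larger than those downward. Genes called higher differed by a median of 1.40-fold, with 116 at 2-fold or more and 27 at 4-fold or more, whereas genes called lower differed by a median of 1.25-fold, with 1 at 2-fold or more and 0 at 4-fold or more. The median log2 fold change of all genes was -0.01, and the central 90% of genes lay between -0.33 and 0.48.

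The libraries were not evenly placed within the classes. Nanoplastics 1, the library with the most VEGFA, was the highest of all 12 in 531 of the 657 genes called higher and the lowest in 123 of the 204 called lower. Control 3, the library just above the threshold, was the lowest high library in 413 of the 657. Control 4, just below the threshold, was the highest low library in 210 of them. The number of genes called in both directions was 861 with all libraries. It was 508, 540, 546, 474 and 511 without nanoplastics 1, 2, 3, 4 or 6, 480 without control 2 and 1332 without control 5. Without controls 3 and 4 together it was 1321, with 868 higher and 453 lower, and DESeq2 called 1369 genes, with 902 higher and 467 lower.

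The 4 genes that mark the high class, chosen with these data known, were SLC2A3 (ENSBTAG00000004556), SLC2A1 (ENSBTAG00000009617), BNIP3 (ENSBTAG00000017804) and STC2 (ENSBTAG00000001823). SLC2A3, a high-affinity glucose transporter best known from neurons, had its lowest, median and highest values at 400, 1571 and 3502 CPM in high libraries, against 28.7, 65.2 and 167 CPM in low libraries. The classes did not overlap, nanoplastics 1 was highest and control 1 lowest, and the log2 fold change was 4.18 (SE 0.46). SLC2A1, the widely expressed glucose transporter, had 278, 510 and 1188 CPM in high libraries, against 123, 150 and 216 CPM in low libraries. Its classes did not overlap either, with control 3 the lowest high library, control 4 the highest low library and a log2 fold change of 1.81 (SE 0.25). BNIP3, a receptor on the outer mitochondrial membrane that marks mitochondria for autophagy, had 77.6, 170 and 306 CPM in high libraries, against 27.0, 40.0 and 64.3 CPM in low libraries. Again control 3 and control 4 were the libraries that came closest, and the log2 fold change was 2.03 (SE 0.25). STC2, a secreted stanniocalcin, was rare, with 6.36, 12.7 and 36.7 CPM in high libraries, against 0, 0.277 and 0.635 CPM in low libraries. It was barely detected in the low class, listed at 0 in control 1, and had the largest fold change of all called genes, at 5.68 (SE 0.37) on the log2 scale.

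**Figure D1:**
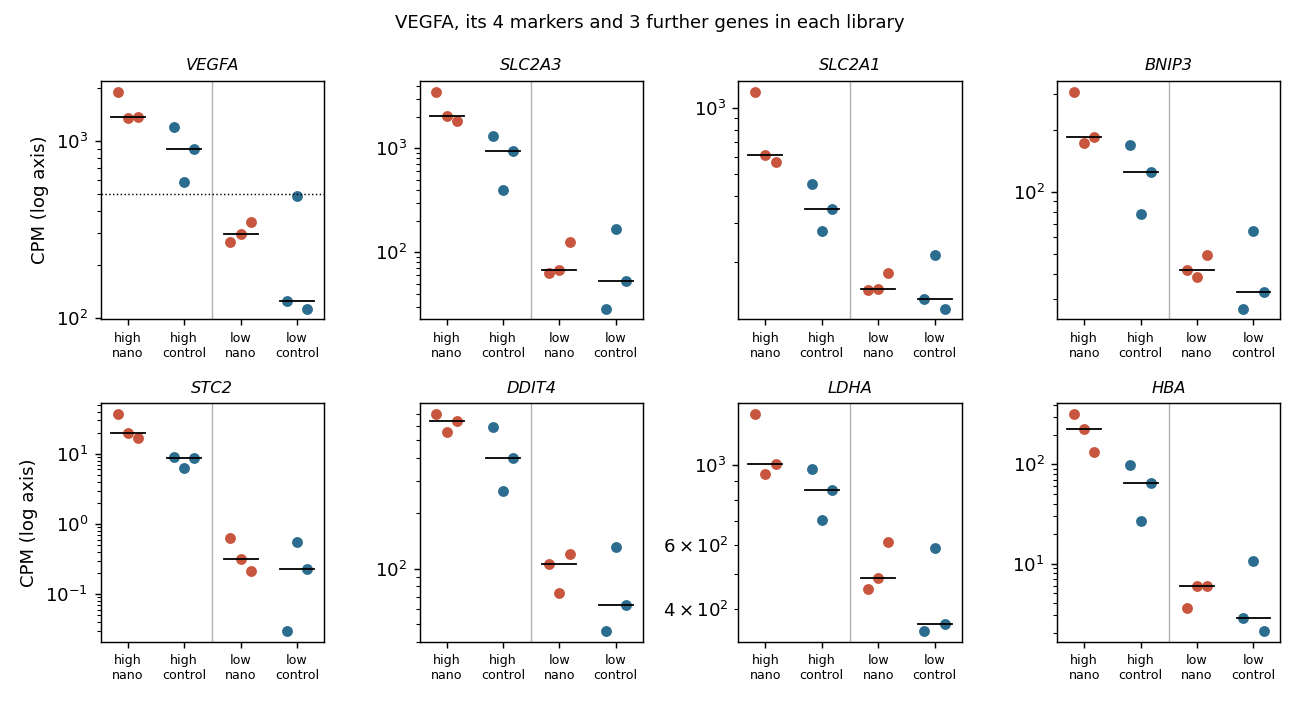
CPM of VEGFA, its 4 markers, DDIT4, LDHA and HBA in each library on log axes, with high-VEGFA libraries left of low ones and, in each class, nanoplastics left of control. Points are libraries, bars are the medians of 3, and the dotted line marks 500 CPM of VEGFA; control 3 and control 4 are the high and low libraries that come closest, for example at 278 and 216 CPM of SLC2A1.

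Intracellular effectors of the oxygen response were higher in the high class as a group. Of 19 tested genes 15 were called higher and 0 lower, 18 had a positive log2 fold change, 12 had classes that did not overlap, and the median log2 fold change was 0.89. DDIT4, an inhibitor of the mTOR growth pathway, had 264, 572 and 695 CPM in high libraries, against 45.8, 89.6 and 131 CPM in low libraries, a log2 fold change of 2.58 (SE 0.24). PPP1R3C, which brings protein phosphatase to glycogen, had 2.32, 13.8 and 19.3 CPM in high libraries, against 0.291, 0.537 and 1.19 CPM in low libraries, a log2 fold change of 4.34 (SE 0.39). In both genes control 3 was the lowest high library, yet it lay above every low library. The transcriptional repressors BHLHE40 and BHLHE41 had log2 fold changes of 2.71 (SE 0.25) and 1.84 (SE 0.23). ANKRD37, an ankyrin-repeat protein induced by HIF in human cells, had 2.37 (SE 0.28), and ERO1A, the oxidase that makes disulfide bonds in the endoplasmic reticulum, had 2.10 (SE 0.21). NDRG1, a stress-induced protein, had 1.56 (SE 0.24). Smaller differences were called for the histone demethylase KDM3A at 0.62 (SE 0.09), the MYC antagonist MXI1 at 0.77 (SE 0.11), the mitophagy receptor BNIP3L at 0.41 (SE 0.09) and the collagen prolyl hydroxylase P4HA1 at 0.40 (SE 0.08). CA9, a carbonic anhydrase widely used as a hypoxia marker, was not called. It had 4.45 to 9.15 CPM in high libraries and 5.02 to 8.98 CPM in low libraries, a log2 fold change of -0.11 (SE 0.18).

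Among the factors that sense oxygen, 2 of the 3 EGLN hydroxylases were called higher, whereas the HIF alpha subunits were not called. HIF1A, the best-known alpha subunit, had a lowest, median and highest value of 3683, 3909 and 4226 CPM in high libraries, against 3456, 3683 and 3910 CPM in low libraries. The classes overlapped and the gene was not called, at a log2 fold change of 0.15 (SE 0.05), though it was called without control 5, at 0.17. EGLN3 and EGLN1, which hydroxylate the alpha subunits, were called higher at 2.28 (SE 0.23) and 0.89 (SE 0.15). EGLN2, of the same family, was not called at -0.13 (SE 0.08). In the list of 12 HIF subunits and regulators, which leaves EGLN1 and EGLN3 out, CITED2 was called higher at 0.50 (SE 0.14) and ELOB lower at -0.20 (SE 0.05), with a median of 0.09. CITED2 competes with HIF alpha subunits for a coactivator, and ELOB is a subunit of the ubiquitin ligase that contains VHL.

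Among secreted oxygen-responsive factors 5 of 13 were called higher and 0 lower, with a median log2 fold change of 0.48. ADM, a vasodilator peptide, had 568, 1048 and 1569 CPM in high libraries, against 320, 399 and 528 CPM in low libraries. The classes did not overlap, and the log2 fold change was 1.30 (SE 0.18). IGFBP1, a binding protein of insulin-like growth factors, had 2.00 (SE 0.30), and ANGPT2, a ligand of the endothelial receptor TEK, had 0.48 (SE 0.08). APLN, the ligand of the apelin receptor, had 1.19 to 7.22 CPM in high libraries, while control 4 at 0.672 CPM was the only low library in which it was detected. ANGPTL4, often listed with these genes, was not called, at -0.15 (SE 0.11). Of 6 tested VEGF relatives and receptors only NRP1, a coreceptor of VEGFA, was called higher, at 0.80 (SE 0.19). The VEGF receptors KDR and FLT1 had 0.19 (SE 0.09) and -0.11 (SE 0.12) and were not called.

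Glycolysis was the metabolic route with the broadest difference. All 19 tested enzymes of the list had a positive log2 fold change, 14 were called higher, the classes of all those 14 were free of overlap, and the median was 0.53. The list leaves out the muscle enolase ENO3, which was called lower and is described below. GAPDH, the enzyme that oxidises glyceraldehyde phosphate, had 2487, 3313 and 4971 CPM in high libraries, against 985, 1794 and 2204 CPM in low libraries. Control 5 was the lowest library, and the log2 fold change was 1.08 (SE 0.17). LDHA, which turns pyruvate into lactate, had 705, 958 and 1380 CPM in high libraries, against 348, 471 and 611 CPM in low libraries, a log2 fold change of 1.09 (SE 0.15). Its partner LDHB was not called at 0.02 (SE 0.07). The list also held PFKL, the liver form of phosphofructokinase, at 0.97 (SE 0.15), ENO1 at 0.86 (SE 0.15) and PKM at 0.52 (SE 0.09). ENO2 and PFKFB4 were close to no difference at 0.02 (SE 0.11) and 0.03 (SE 0.09).

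In the routes next to glycolysis fewer members of each list were called. Of 9 glucose transporters tested, SLC2A1 and SLC2A3 were called, and the others ranged from -0.46 for SLC2A6 to 0.28 for SLC2A4. Of 13 genes for lactate and pyruvate, SLC16A3, the lactate exporter, was called at 1.57 (SE 0.23) and PDK1, the kinase that shuts pyruvate dehydrogenase, at 1.25 (SE 0.16). These 2 calls stand beside 5.26% called higher over all genes. PDK2, PDK3 and PDK4 were not called, at -0.07, 0.08 and 0.16. In glycogen metabolism 4 of 9 genes were called higher, namely the synthase GYS1 at 1.32 (SE 0.18), the branching enzyme GBE1 at 1.03 (SE 0.14), the phosphorylase PYGL at 0.67 (SE 0.09) and the phosphatase subunit PPP1R3B at 0.79 (SE 0.14). Of 10 hexosamine and hyaluronan enzymes, which use glucose to build the matrix of the expanding cumulus, 0 were called in either direction.

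**Figure D2:**
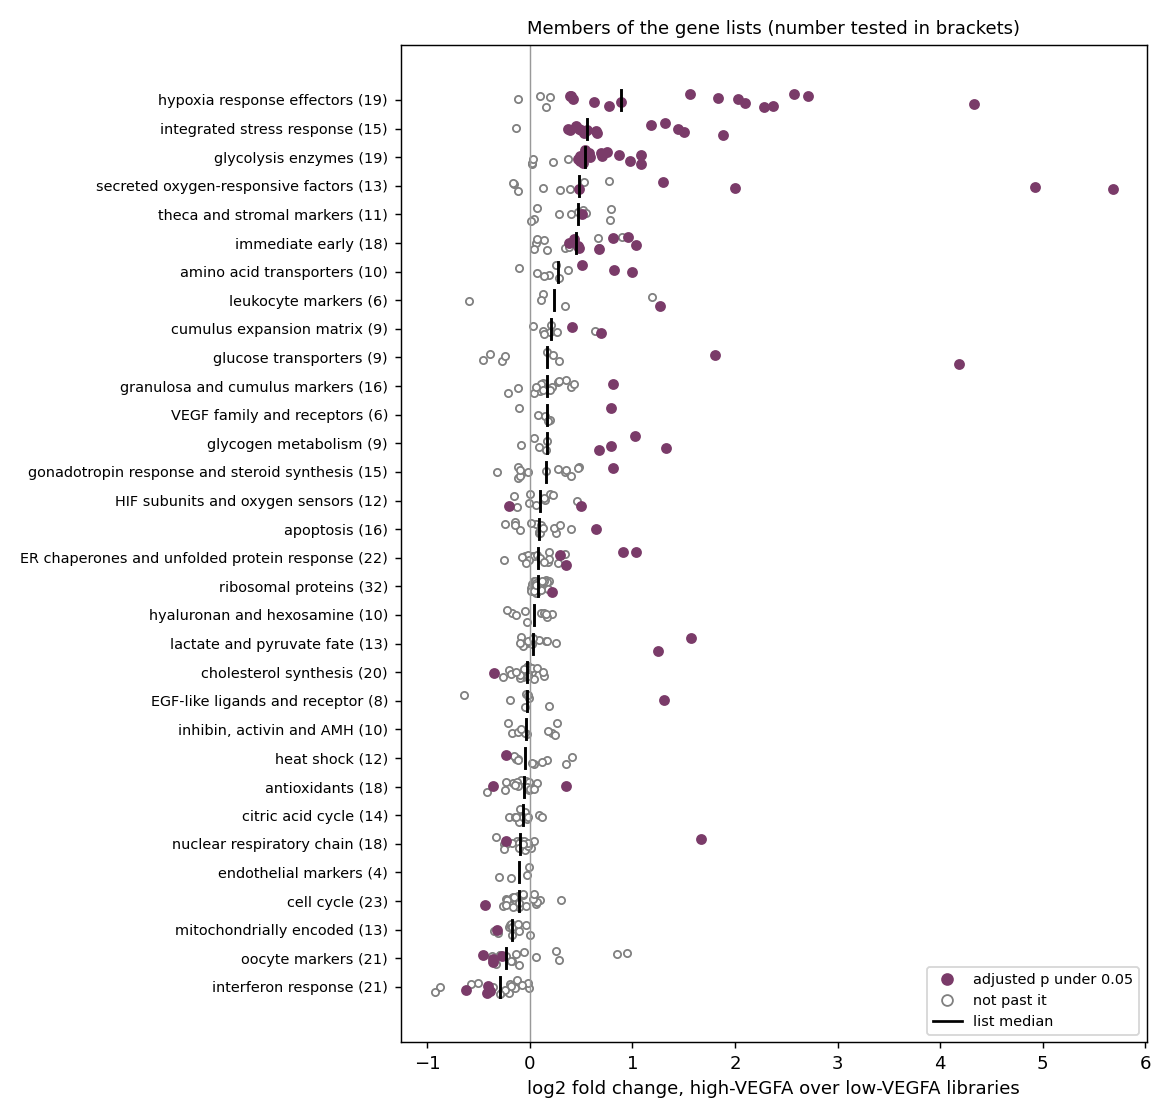
Log2 fold change, high over low VEGFA, of each tested gene in the gene lists, 1 row per list, with called genes coloured and the list median as a bar. The red blood cell list, with 2 tested genes, is not drawn. Hypoxia effectors, glycolysis and the integrated stress response lie mostly right of 0 with medians of 0.89, 0.53 and 0.56, and the interferon list lies wholly left of 0 with a median of -0.29.

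Targets of the ATF4 arm of the stress response were called nearly throughout. Of 15 tested genes 14 were called higher, 10 of them with classes that did not overlap, and the median log2 fold change was 0.56. TRIB3, a pseudokinase that binds ATF4, had 5.88, 7.54 and 18.5 CPM in high libraries, against 1.34, 2.78 and 3.25 CPM in low libraries, a log2 fold change of 1.88 (SE 0.21). The serine synthesis enzymes PSAT1 and PHGDH had 1.50 (SE 0.21) and 1.18 (SE 0.20). The lipoprotein receptor VLDLR had 1.45 (SE 0.16), and CHAC1, which breaks down glutathione, had 1.32 (SE 0.16). The transcript of ATF4 itself differed by 0.37 (SE 0.08), and DDIT3, a transcription factor linked to cell death, by 0.65 (SE 0.11). ATF5 was the tested member that was not called, at -0.14 (SE 0.11). Among amino acid transporters SLC1A4, SLC6A9 and SLC3A2 were called of 10 tested, at 1.00, 0.82 and 0.50 (SE 0.17, 0.18 and 0.10).

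Most chaperones of the endoplasmic reticulum did not share that difference. Of 22 genes 4 were called higher, beside 5.26% of all genes, and the median was 0.08. The 4 were HERPUD1, of the degradation pathway for misfolded proteins, at 1.04 (SE 0.16), the main chaperone HSPA5 at 0.91 (SE 0.22), the mannosidase-like EDEM1 at 0.36 (SE 0.08) and the lectin CANX at 0.29 (SE 0.06). The call of HSPA5 was lost without nanoplastics 3, 4 or 6, at log2 fold changes of 0.83 in each case. HSP90B1, CALR and the transcription factor XBP1 gave 0.27, -0.02 and 0.07 (SE 0.11, 0.07 and 0.09), of which none was called.

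Immediate early genes, which respond within minutes to signals or handling, were all on the positive side. All 18 had a positive log2 fold change and 8 were called, among them NR4A1 at 0.96 (SE 0.18), JUNB at 0.81 (SE 0.15), KLF4 at 0.68 (SE 0.18) and ATF3 at 0.48 (SE 0.06). ATF3 was the member whose classes did not overlap. FOS, the most familiar of them, was not called at 0.06 (SE 0.05). Of 16 apoptosis genes only the cell cycle inhibitor CDKN1A was called, with 120 to 175 CPM in high libraries, against 82.9 to 105 CPM in low libraries, a log2 fold change of 0.64 (SE 0.08). Of 18 antioxidant genes 16 were not called, GCLC, of glutathione synthesis, was called higher at 0.35 (SE 0.05), and thioredoxin TXN lower at -0.36 (SE 0.09). HMOX1 gave 0.02 (SE 0.11). The single calls in the apoptosis and antioxidant lists stand beside 5.26% called higher and 1.63% called lower over all genes.

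Among the 15 genes called higher at the smallest p, several lay outside these lists. SLC1A1, a glutamate and cysteine transporter, had 4.70, 6.33 and 17.5 CPM in high libraries, against 0.814, 1.34 and 1.61 CPM in low libraries, a log2 fold change of 2.73 (SE 0.26). DLC1, a GTPase-activating protein, had 12.1, 20.8 and 30.5 CPM in high libraries, against 4.38, 4.94 and 6.84 CPM in low libraries, a log2 fold change of 2.00 (SE 0.19). UPP1, a uridine phosphorylase, had 2.26, 4.24 and 13.2 CPM in high libraries, against 0.0540, 0.365 and 0.865 CPM in low libraries. These 3 genes separated the classes without overlap, with nanoplastics 1 highest in each. The zinc finger gene ZNF395 had a log2 fold change of 1.80 (SE 0.19), the proton pump subunit ATP6V1B2 0.83 (SE 0.09) and the vesicle GTPase RAB3A 1.20 (SE 0.13).

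**Figure D3:**
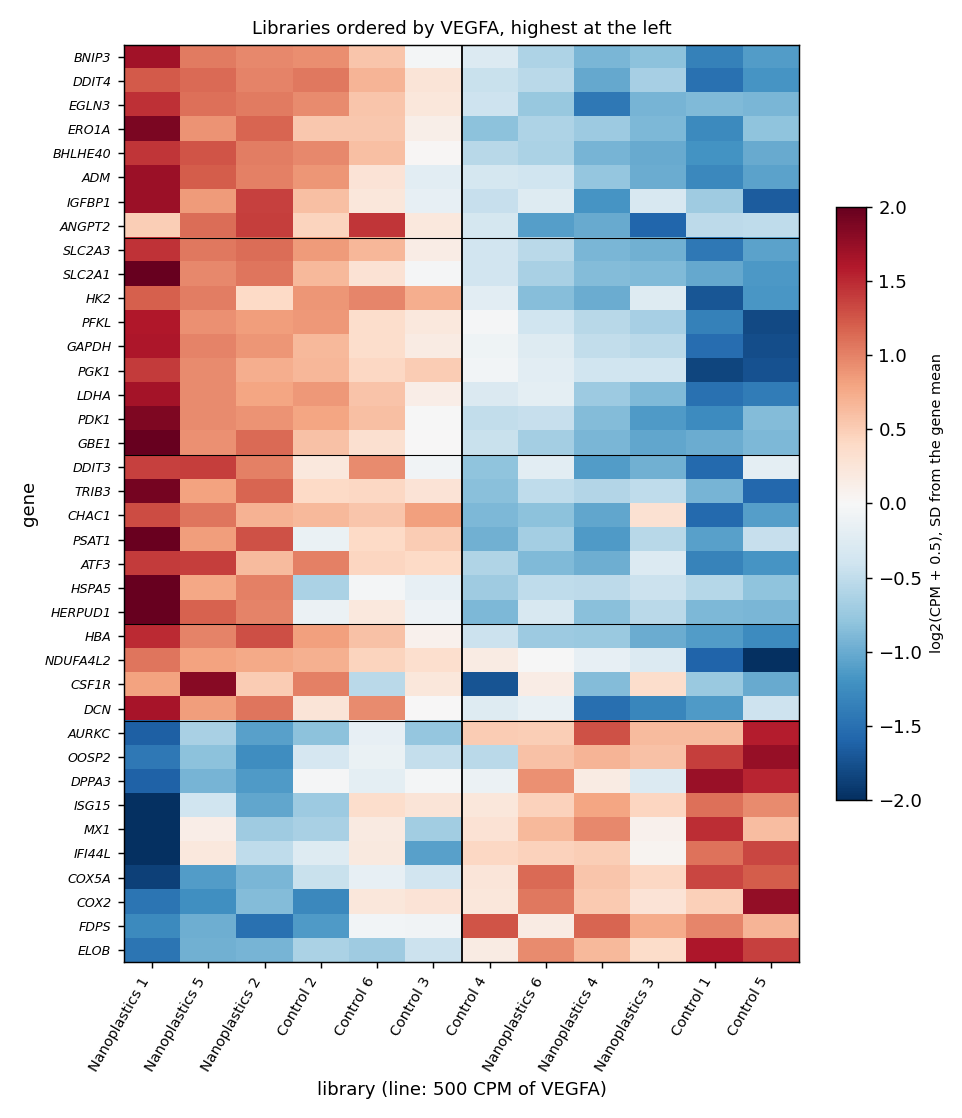
Log2(CPM + 0.5) of 38 genes in each library, as SD from the mean of the gene, with libraries ordered by VEGFA from the highest at the left and a line at 500 CPM of VEGFA. Red is above and blue below the gene's mean; nanoplastics 1 is the highest library for most genes called higher, and control 3, next to the line, is the palest of the high libraries.

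The globin genes HBA and HBM were also among these 15. HBA, alpha globin, had 26.7, 115 and 321 CPM in high libraries, against 2.09, 4.77 and 10.7 CPM in low libraries, a log2 fold change of 4.64 (SE 0.46). The classes did not overlap, with control 3 the lowest high library and control 4 the highest low library, as for the hypoxia genes. HBM, a minor globin, had 1.49 to 8.26 CPM in high libraries, against 0 to 0.465 CPM in low libraries. Of the 7 listed red blood cell genes in the table, HBB and SLC4A1, which define that cell, had a count of 0 in every library, ALAS2 and AHSP were below the filter, and the summed level was 28.3 to 329 CPM in high and 2.79 to 11.1 CPM in low libraries. Alpha globin genes have near-identical copies, so the count of HBA may hold reads of more than 1 gene.

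Markers of leukocytes and vessel cells were rare, and those of theca and stroma, several of which cumulus cells also express, were abundant. Summed leukocyte markers ran from 7.43 to 17.5 CPM in high and 6.42 to 11.3 CPM in low libraries, and 1 of 6 tested, CSF1R, was called higher, a call that was lost without control 2 or without nanoplastics 4 or 5. Of 11 leukocyte markers, PTPRC, CD53, CD3E, CD79A and AIF1 were below the filter. Summed endothelial markers ran from 6.74 to 11.4 and 7.76 to 12.6 CPM, with 0 of 4 called, and CDH5, TIE1, EMCN, CLDN5, ESAM and ERG were below the filter. Theca and stromal markers summed to 1583 to 1804 and 1315 to 1947 CPM, with 1 of 11 called, DCN, at 0.51 (SE 0.10). All 11 had a positive log2 fold change, with a median of 0.46, against a median of -0.01 over all genes. The part of these cells in the split was not tested. Of 16 granulosa and cumulus markers only HSD17B1, an estrogen-making enzyme, was called, at 0.81 (SE 0.13), beside 5.26% of all genes called higher.

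Among the 204 genes called lower the differences were smaller than among those called higher. AURKC, an Aurora kinase of meiosis in mouse and human oocytes, had 35.7, 41.8 and 47.1 CPM in high libraries, against 53.4, 54.8 and 65.4 CPM in low libraries. The classes did not overlap and the log2 fold change was -0.41 (SE 0.07). FDPS, farnesyl diphosphate synthase of the cholesterol pathway, had 114, 123 and 145 CPM in high libraries, against 151, 170 and 182 CPM in low libraries, a log2 fold change of -0.35 (SE 0.07). It was the only one called of 20 cholesterol genes. Others among the 10 called lower at the smallest p were the polymerase subunit POLR2F at -0.35, the muscle enolase ENO3 at -0.35, the cytochrome oxidase subunit COX8A at -0.26 and the proteasome ATPase PSMC5 at -0.29 (SE 0.06, 0.07, 0.05 and 0.06). ENO3 thus stood opposite to ENO1 in the same libraries.

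Oocyte transcripts leaned lower, although most members were not called. Of 21 tested 4 were called lower and 0 higher, beside 1.63% and 5.26% of all genes, and 5 had a positive log2 fold change. The median was -0.23, and 0 of the 21 had classes free of overlap. The 4 were DPPA3, which protects the maternal genome from demethylation in mouse, at -0.36 (SE 0.08), OOSP2 at -0.45 (SE 0.10), the mRNA decay adaptor BTG4 at -0.36 (SE 0.09) and the meiotic kinase WEE2 at -0.27 (SE 0.08). The call of WEE2 was lost in most fits that left out 1 library. DPPA3 had 41.4, 51.9 and 58.1 CPM in high libraries, against 55.1, 65.6 and 84.1 CPM in low libraries, so the classes overlapped. The oocyte growth factors GDF9 and BMP15 gave 0.25 (SE 0.21) and -0.36 (SE 0.13) and were not called. In pools of whole complexes, fewer cells of a type relative to the others and less RNA per cell cannot be told apart.

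Interferon-stimulated genes leaned the same way. None of 21 had a positive log2 fold change, 4 were called lower, beside 1.63% of all genes, and the median was -0.29. ISG15, a ubiquitin-like modifier, had 140, 226 and 286 CPM in high libraries, against 277, 307 and 347 CPM in low libraries, a log2 fold change of -0.42 (SE 0.11). The antiviral GTPase MX1 had -0.39 (SE 0.11), IFI6 -0.41 (SE 0.10) and IFI44L -0.63 (SE 0.18). All 4 overlapped between the classes, nanoplastics 1 was the lowest library for ISG15, MX1 and IFI44L, and the call of MX1 was lost when nanoplastics 1, 2, 4 or 6 or control 1, 2 or 3 was left out.

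Mitochondrial genes differed little. The 13 mitochondrially encoded genes all had a negative log2 fold change, with a median of -0.18 and COX2, a subunit of cytochrome oxidase, called lower at -0.32 (SE 0.08). In the nuclear respiratory chain 18 genes were tested, 3 had a positive log2 fold change, and the median was -0.10. COX5A was called lower at -0.24 (SE 0.05) and NDUFA4L2, a complex subunit homologue induced by HIF in human cells, higher. These calls stand beside 1.63% called lower and 5.26% called higher over all genes. The list leaves out COX8A, named above among the genes called lower. NDUFA4L2 had 196, 291 and 408 CPM in high libraries, against 14.4, 112 and 163 CPM in low libraries. The low libraries were themselves spread, with controls 1 and 5 far below the rest. Of 14 citric acid cycle genes 0 were called, of 23 cell cycle genes RRM2 was called lower, and of 12 heat shock genes HSPH1 was called lower. All 32 ribosomal proteins had a small positive value, with a median of 0.08 and RPL10 called.

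Functions by which cumulus cells serve maturation had called genes in some lists. In the expansion matrix all 9 tested genes had a positive log2 fold change, with a median of 0.20, and 0 had classes free of overlap. The hyaluronan receptor CD44 was called at 0.69 (SE 0.17) and the protease ADAMTS1 at 0.41 (SE 0.12), beside 5.26% of all genes called higher. HAS2, the hyaluronan synthase of expansion, had 555 to 652 CPM in high libraries and 507 to 652 CPM in low libraries and was not called, at 0.15 (SE 0.07). PTGS2, the prostaglandin synthase, was not called either at 0.63 (SE 0.20), though it was without control 3, 4 or 5, at up to 0.78. Of 8 EGF receptor genes only the ligand TGFA was called, at 1.30 (SE 0.35), beside the same 5.26%. Of the 8, 2 had a positive log2 fold change, the median was -0.03 and 0 had classes free of overlap. Of 15 steroid and gonadotropin genes HSD17B1 was called, beside 5.26% of all genes called higher. STAR, FSHR and CYP19A1 gave -0.32, 0.35 and 0.48 (SE 0.18, 0.15 and 0.27) and were not called. Of 10 inhibin and activin genes 0 were called.

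The split was then read separately in the samples of each treatment, which share no library. Within nanoplastics libraries, 3 high against 3 low, 1321 of 12369 genes were called (10.7%), with 849 higher and 472 lower. Within control libraries, 3 high against 3 low, 15 of 12343 genes were called (0.122%), all higher. The gap in VEGFA was smaller between the control libraries, and the biological coefficient of variation was 0.100 in nanoplastics and 0.129 in control libraries. The part of either in these counts was not tested. Among them were STC2, ERO1A, SLC1A1, CHAC1, EGLN3, BHLHE40, DLC1, DDIT4, PPP1R3C, HBA, HBM, HERPUD1, TRIB3 and VLDLR. All 15 had the same sign in nanoplastics libraries and 14 were called there, against 67.4% of the same sign among the 12238 genes tested in both. In the other direction, 1158 of 1314 genes called in nanoplastics libraries (88.1%) had the same sign in control libraries, with 14 called there. Counts in the control samples depended on single libraries, at 2, 0, 23, 89, 13 and 1 genes without control 1, 2, 3, 4, 5 or 6. Without control 2 edgeR gave 482 genes at an unadjusted p under 0.05. DESeq2 called 94 genes in the control samples. In the nanoplastics samples the count was 700, 809, 532 and 624 without library 1, 2, 3 or 4.

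The 4 markers had larger fold changes among nanoplastics samples. SLC2A3 gave a log2 fold change of 4.91 (SE 0.33) in nanoplastics and 3.44 (SE 0.59) in control libraries, and SLC2A1 gave 2.39 (SE 0.25) and 1.22 (SE 0.22). BNIP3 gave 2.44 (SE 0.21) and 1.62 (SE 0.32), and STC2 6.08 (SE 0.44) and 4.98 (SE 0.50). DDIT4 was closer, at 2.72 (SE 0.17) and 2.42 (SE 0.37), as was PPP1R3C, at 4.45 (SE 0.29) and 4.16 (SE 0.64). LDHA gave 1.17 (SE 0.16) and 0.99 (SE 0.20). None of these differences between the treatments passed the interaction test described next.

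**Figure D4:**
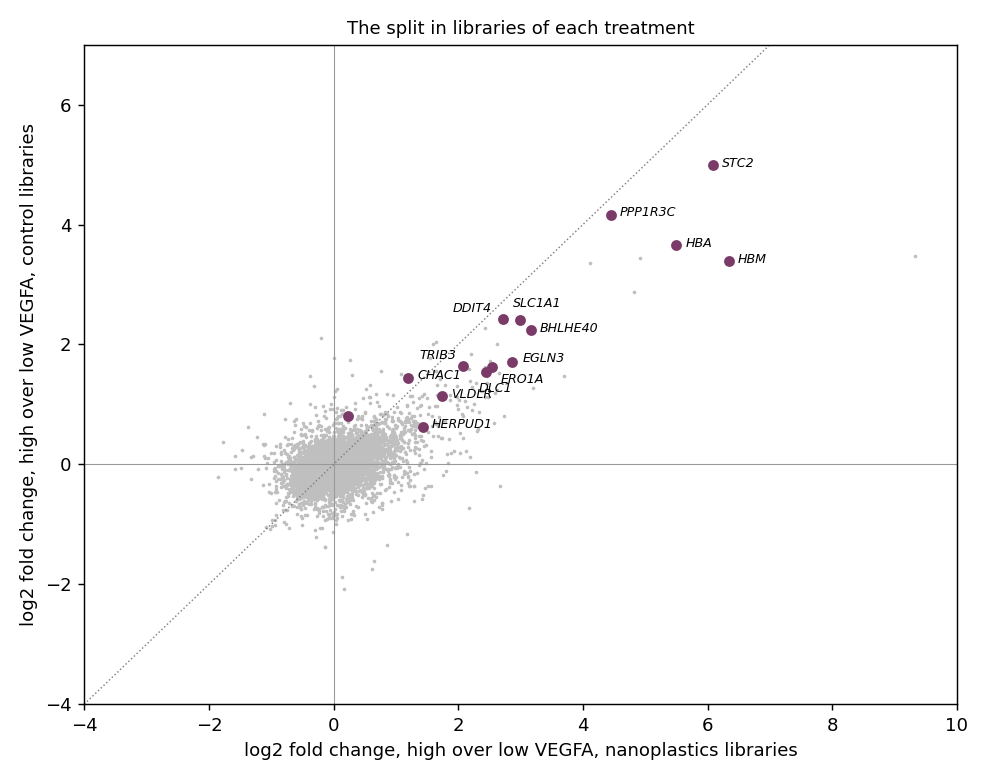
Log2 fold change, high over low VEGFA, of each gene tested in both sets, in nanoplastics libraries on the horizontal and in control libraries on the vertical axis, with 3 high and 3 low libraries in each. Each point is a gene, the dotted line marks equal values, and the 15 large points are the genes called in control libraries, all of which lie right of 0, with names for the 14 called in both sets; in the low nanoplastics libraries APLN was at 0 and HBM near 0, so their horizontal positions are not precise.

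The classes also allowed the particles to be compared at a like VEGFA class. This comparison was not used to draw the classes and is a test. With class as a covariate, edgeR called 0 of 12495 genes (0%) between nanoplastics and control libraries, with 558 at an unadjusted p under 0.05 and a smallest adjusted p of 0.997. Without the class term 259 genes had an unadjusted p under 0.05, and with the VEGFA level as a continuous term 188, with 0 called in each. If no gene differed, a share of about 0.05 of the genes tested would fall under that p. The counts 558, 259 and 188 are all below that share. The 3 genes of smallest p were STC2, NXPH4 and UPP1, at log2 fold changes of 1.55 (SE 0.31), 1.91 (SE 0.39) and 1.74 (SE 0.38). NXPH4, a neurexophilin, had 12.9, 4.50 and 3.33 CPM in high nanoplastics and 1.50, 1.31 and 2.27 CPM in high control libraries. It had 1.91, 0.749 and 1.03 CPM in low nanoplastics and 0.432, 0.672 and 0.174 CPM in low control libraries. DESeq2 called NXPH4 alone. VEGFA was itself unequal within the high class, higher in all 3 nanoplastics libraries than in all 3 control libraries, and its part in these values was not tested beyond the continuous term.

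The test of whether the treatment difference depended on class gave 0 calls among 12605 genes (0%), with 751 at an unadjusted p under 0.05 and a smallest adjusted p of 0.268. Within the high class 0 genes were called (0%) with 1056 at an unadjusted p under 0.05, and within the low class 0 (0%) with 333. The counts 751 and 1056 are above a share of 0.05 of the genes tested, and 333 is below it. DESeq2 called 12 genes for the interaction, 9 positive and 3 negative. HSPA5 had 4119, 1961 and 1758 CPM in high nanoplastics and 921, 1141 and 1212 CPM in high control libraries. In the low class it had 1009, 967 and 975 CPM in nanoplastics and 949, 883 and 847 CPM in control libraries. The 3 high nanoplastics libraries thus stood above the other 9. The treatment difference was 1.32 (SE 0.24) in the high class, with an adjusted p of 0.0862, and 0.16 (SE 0.24) in the low class. Their difference was 1.17 (95% interval 0.45 to 1.88, not adjusted for the number of genes tested), with an adjusted p of 0.636. Over the alternatives it ran from 0.63, without nanoplastics 1, to 1.39, with adjusted p from 0.236 to 1.00.

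Some genes outside the stress lists had treatment differences of opposite sign in the classes, none past the threshold in edgeR. DSP, desmoplakin of cell junctions, had 28.1, 27.0 and 26.3 CPM in high nanoplastics and 21.3, 19.3 and 16.6 CPM in high control libraries. In the low class the order was the opposite, with 21.2, 19.5 and 19.3 CPM in nanoplastics and 31.4, 27.6 and 23.4 CPM in control libraries. The interaction was 1.00 (SE 0.18, adjusted p 0.268). DTNA, dystrobrevin alpha, gave 1.05 (SE 0.18, adjusted p 0.268), and ERRFI1, an inhibitor of the EGF receptor, gave 1.34 (SE 0.25, adjusted p 0.295). CYP11A1, the enzyme that starts steroid synthesis from cholesterol, had 285, 283 and 314 CPM in high nanoplastics and 333, 432 and 431 CPM in high control libraries. It had 468, 403 and 476 CPM in low nanoplastics and 277, 382 and 289 CPM in low control libraries. Nanoplastics libraries were thus the lower ones in the high class and the higher ones in the low class, at an interaction of -0.91 (SE 0.18, adjusted p 0.476). DESeq2 called these 4 genes, and RND3, SCG2, DDR2, KCNMB4, SELENOP, CCDC152, LRP11 and CLDN7 besides. The SELENOP and CCDC152 genes overlap, so their reads may be shared.

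**Figure D5:**
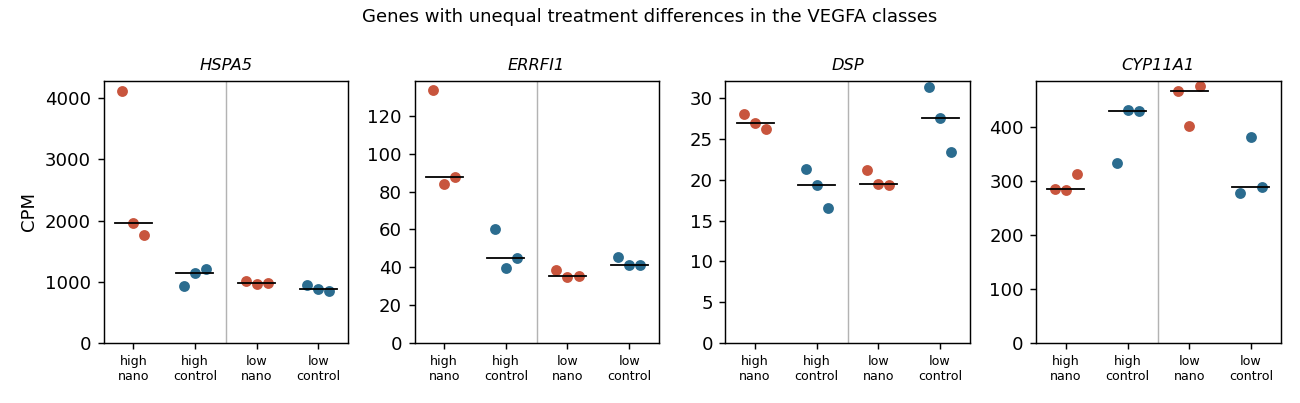
CPM of HSPA5, ERRFI1, DSP and CYP11A1 in each library, with high-VEGFA libraries left of low ones and nanoplastics left of control in each class. Points are libraries and bars are the medians of 3; nanoplastics libraries lie above control libraries for DSP in the high class and below them in the low class, the opposite of CYP11A1.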

How the data were processed

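Each sample was a pool of 50 bovine complexes, and its RNA was read from both ends over 150 bases, per the labels' protocols. The submitters' processing notes list Trim Galore 0.4.5, STAR 2.5.4b and DESeq2 without saying what each did. The sources used here do not give how reads were counted, whether by strand, or on which genome build and annotation. Coordinates are left out for that reason, and reads of genes that overlap, antisense ones included, may be mixed. The deposited table held raw counts per gene, whole numbers, for 12 libraries and 18057 gene rows. After removal of 74 rows that copied another exactly, 17983 remained, of which 2487 had a count of 0 in every library.

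CPM is the count per 1000000 counts of the library, and overlap between classes was judged on it. Fold changes came from TMM-normalised counts with edgeR 4.0.16 under R 4.3.3, by two-sided quasi-likelihood tests (glmQLFit and glmQLFTest), after filterByExpr with a minimum count of 10 and a minimum total of 15, with Benjamini-Hochberg adjustment over all genes tested. Each SE was worked back from the test, as the absolute log2 fold change divided by the square root of its F statistic. The 95% interval was built from that SE, without adjustment for the number of genes tested. Members, gene lists and tests were chosen with earlier results of these data known. Lists are described by counts and medians, without a test. Named genes were VEGFA, its 4 markers, genes fixed by name, the 15 higher and 10 lower called genes of smallest p, the 2 most abundant genes of each list, and the 3 genes of smallest p in the treatment and interaction tests. Other list members and the genes called in control libraries were named after their values were seen, and some genes that the rule names are left out of the text.

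The labels describe the samples as independent. Any pair of libraries of a treatment differed by more than counting noise, with a chi-square per degree of freedom of at least 5.45. P-values measure the spread between these samples, in which batches of material are mixed, and the comparison could not be repeated inside a batch. The script was tested on simulated counts. Alternatives covered normalisation, the filter, DESeq2 1.42.0, limma-voom (limma 3.58.1), covariates, the replicate number as a block and left-out libraries. Sequences of promoters and proteins were not used here. Some genes are not reported here.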

Additional observations from a re-analysis of the deposited data

Results flagged for a closer look

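Values of the most abundant and named genes were examined for single libraries that stood apart from the other 5 of their class on the log2 CPM scale (gap over range above 0.625). Chance sets apart about 1 group in 20, and 7 of 238 groups (2.94%) were set apart here. CYP19A1, the aromatase, was at -0.19 in nanoplastics 1, against 0.87 to 1.45 in the other high libraries, and SREBF2, a regulator of cholesterol synthesis, was at 9.19 in that library, against 8.72 to 8.87. MCM7, a replication helicase subunit, was at 7.15 in control 3, against 7.03 to 7.04 in the other high libraries. Among low libraries, control 5 was lowest for IGFBP3, a binding protein of insulin-like growth factors, at 10.32, against 10.95 to 11.17 in the others. Control 5 was also lowest for PC, pyruvate carboxylase, at 8.34, against 8.87 to 9.18, and for HSPB1, a small heat shock protein, at 11.16, against 11.62 to 11.75. SLC38A1, a glutamine transporter, was at 6.76 in nanoplastics 6, against 7.12 to 7.19 in the other low libraries.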

How the results depend on the processing

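Of 76 counts of called genes under an alternative, 53 stayed within 1.5 times the count reported and 23 did not. The 53 include every count of 0 in the treatment and interaction tests, where the count reported was also 0. High against low gave 861 genes, and between 474 and 1332 with 1 library left out, 1369 with DESeq2 and 1321 without the libraries nearest the threshold. Treatment adjusted for class gave 0 genes, except 1 with DESeq2. The interaction gave 0, except 12 with DESeq2, and 0 to 1 with 1 library left out. Within control libraries the 15 became 94 with DESeq2, 46 without the filter and 0 to 89 with 1 library left out. Within nanoplastics libraries the 1321 became 532 to 1173 with 1 library left out, and 1252 to 1521 under other tools, normalisation or no filter. With the replicate block, high against low gave 792 genes (641 higher, 151 lower) and the treatment and interaction tests 0. Samples with the same number correlated at -0.26, 0.41, 0.08, 0.18, 0.04 and -0.12, and only number 2 correlated best with its own. Differences between the VEGFA classes were left in these values, and 4 of 6 numbers were split between the classes. The correlations therefore cannot show whether the numbers pair samples, and the main fits did not pair them. For high against low, named genes were followed only in edgeR fits to the classes, not with DESeq2, limma-voom or the continuous VEGFA term. In these edgeR fits, counted per gene and alternative, 0 values of a called gene changed sign, 31 calls were lost and 25 gained. The cause of these shifts was not tested. Genes near or below 1 CPM, CABP1 and GDF15 among them, rest on few reads.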

Other observations

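Outside the gene lists and the named genes, 10 further genes were called at 4-fold or more higher in high-VEGFA libraries, chosen here after their values were seen. GDF15, a stress hormone of the TGF-beta family, had a lowest, median and highest value of 0.300, 0.905 and 4.49 CPM in high libraries, against 0, 0.0268 and 0.162 CPM in low libraries. SLC5A8, a sodium-coupled carrier of lactate and short fatty acids, had 0.654, 3.21 and 11.7 CPM in high libraries, against 0.0581, 0.152 and 0.550 CPM in low libraries. CRB2, of the apical polarity complex, had 5.94, 17.1 and 33.2 CPM in high libraries, against 1.16, 2.83 and 5.19 CPM in low libraries. LOXL2, which crosslinks collagen, had 6.60, 14.5 and 29.9 CPM in high libraries, against 1.41, 2.66 and 5.62 CPM in low libraries. The classes of these 4 genes did not overlap, nor did those of the calcium-binding CABP1. The others, with overlapping classes, were the tight junction protein CLDN3, the hormone FGF23, the transcription factor ISL2, the deiminase PADI1 and the protease inhibitor SERPINB2. Nanoplastics 1 was the highest library for 9 of the 10, ISL2 being the exception with control 2. The called gene with the largest fall was PIWIL3, of the Piwi family that handles small RNAs in the germline, at 0.134, 0.226 and 0.438 CPM in high libraries, against 0.214, 0.848 and 1.91 CPM in low libraries, with overlapping classes. Its log2 fold change was -1.80 (SE 0.49).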
